A study of Homo sapiens with 15 samples.

Results

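The FOS and JUN families are the core subunits of the transcription factor AP-1, and their 7 genes (FOS, FOSB, FOSL1, FOSL2, JUN, JUNB and JUND) were followed in H1299, an established line of human non-small cell lung carcinoma. The 7 genes were chosen with earlier results of these data known. They were matched by symbol to Ensembl gene IDs among the 58395 genes of the table, a step that used no measured value. All 7 passed the low-count filter that kept 16889 genes. Cells grown with serum were washed and held for 12 h in RPMI medium without serum that contained 5 mM glucose plus 4 mM NH4Cl, an ammonium salt, 5 mM glucose plus 4 mM glutamine (called both nutrients below), 4 mM glutamine alone, 5 mM glucose alone, or neither nutrient. Serum was therefore absent from every group, including the reference media. Poly(A) RNA was sequenced in 3 libraries per medium, 15 in total. The labels call the cells triplicate without naming separate cultures or days, so a p-value here reflects variation among these libraries alone, and that variation may be technical.

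AP-1 is a dimer of basic leucine zipper proteins. JUN proteins can pair with each other or with FOS proteins, whereas FOS proteins need a JUN partner to bind DNA. FOS, FOSB, JUN and JUNB are classic immediate early genes, transcribed within minutes of growth factor or stress signals through MAP kinases, and their mRNAs are short-lived. FOSL1, which encodes Fra-1, is often high in invasive carcinoma cells, and JUND is usually the most constant member.

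Libraries held 14914127 to 19938691 counts. Levels are given in CPM, for which each gene's counts were divided by the library total after TMM scaling, a factor that corrects for differences in RNA composition. That factor was 1.006 to 1.086 in the media with a nutrient and 0.793 with neither. Of the markers of an epithelial carcinoma, the keratin genes KRT8 and KRT18 were at 159 to 563 CPM and 291 to 665 CPM by medium. The keratin gene KRT19 was at only 1.09 to 1.59 CPM, and EPCAM and CDH1 were nearly absent, never above 16 and 6 counts. The mesenchymal gene VIM was at 1835 to 2646 CPM. No leukocyte or endothelial marker passed the filter (0 of 4 and 0 of 3, with at most 12 and 16 counts). Of the fibroblast markers 2 of 4 passed, none of the 4 was above 31 counts, and the summed level of the 4 by library was 1.03 to 2.99 CPM.

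The promoters were read because several members moved together. RefSeq windows from 250 bases before to 50 bases after the gene start (GRCh38.p14) were found for 6 of the 7 members, all but FOSL1. Each of the 6 held TGACG, the core of the site that CREB and ATF factors bind, on 1 strand or the other, as did 24.5% of 34943 promoter windows. The sequences below show, 5′ to 3′ on the gene's strand, 1 such stretch of 30 bases per gene, with capitals for the letters searched. In JUN the capitals mark TGACATCA, a match to TGACNTCA, a form bound by JUN and ATF dimers, and in JUND they mark TGACGTCA, the palindromic CRE.
FOS: gtggttgagcccgTGACGtttacactcatt
FOSB: agcaaggggcgggTGACGtaagcagggggg
FOSL2: tggagtctggggtTGACGtgagtgaatcca
JUN: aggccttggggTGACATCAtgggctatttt
JUNB: cgcttcctgacagTGACGcgagccgcctcc
JUND: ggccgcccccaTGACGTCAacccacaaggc

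These stretches are at chr14:75278751-75278780 (plus strand) for FOS, chr19:45467923-45467952 (plus) for FOSB, chr2:28392779-28392808 (plus) for FOSL2, chr1:58784096-58784125 (minus) for JUN, chr19:12791336-12791365 (plus) for JUNB and chr19:18281804-18281833 (minus) for JUND. Counted with -1 as the base just before the start, the capitals begin at -64 in FOS, -60 in FOSB, -66 in FOSL2 and -67 in JUN, and farther out at -137 in JUNB and -200 in JUND. These positions depend on which match was printed. Further TGACG matches, on either strand and not printed, begin at -201 in FOSL2, -123 in JUN and -86 in JUND. In GENCODE 29 the JUN stretch falls within the single exon of a longer gene model and the FOSL2 stretch within an intron, and the other printed sites precede the gene. TGACNTCA was in 7.71% of all windows and TGACGTCA, which it contains, in 1.84%. TGANTCA, the AP-1 site proper, was found in the FOSL2 window and in 7.72% of all windows. Also searched were GAANNTTC and TTCNNGAA, paired units of the heat shock element, and the CArG box bound by SRF. GAANNTTC was in the JUN window, beginning at -150, and in 6.79% of all windows. TTCNNGAA and the CArG box were in 0 of the 6 members' windows, against 7.74% and 1.3% of all. Sites farther than 250 bases before the start lay outside the windows, so a gene without a match here may still carry one. All motifs were searched on both strands, and a match is a run of letters, not a measured site.

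FOS itself (ENSG00000170345, chromosome 14, 75278774 to 75282230, GRCh38) was the member that varied most between media. It was at 10.3, 10.2 and 10.5 CPM in the 3 libraries of glucose with NH4Cl, 4.62, 4.17 and 4.32 CPM with both nutrients, 72.6, 73.2 and 68.2 CPM with glutamine, 16.2, 15.7 and 14.8 CPM with glucose, and 1220, 1217 and 1216 CPM with neither. No library of any medium overlapped another medium, and the order from high to low was neither, glutamine, glucose, glucose with NH4Cl, both. The mean with both nutrients was 278-fold lower than with neither, a log2 change of -8.12 ± 0.041 (SE) for both against neither (edgeR quasi-likelihood test, Benjamini-Hochberg adjusted p = 6.95e-212). Among the 11281 genes that averaged 5 CPM or more, 4 had a larger ratio of highest to lowest medium, and the median gene had a ratio of 1.74. For these genes a lowest medium under 0.2 CPM was set to 0.2 CPM, so the number with a larger ratio is a minimum. The same holds for such numbers given for the other members. In RNA from whole cultures, fewer cells with the transcript and less transcript per cell cannot be told apart.

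FOSB (ENSG00000125740, chromosome 19, 45467995 to 45475179), whose protein can replace FOS in the dimer, ran with FOS through the 5 media at a lower level. Its libraries were at 3.26, 5.01 and 3.36 CPM in glucose with NH4Cl, 1.41, 1.91 and 1.98 CPM with both nutrients, 28.8, 30.2 and 28.5 CPM with glutamine, 4.50, 5.45 and 4.91 CPM with glucose, and 427, 426 and 437 CPM with neither. The order of media was the same as for FOS, and only glucose with NH4Cl overlapped a neighbour, glucose alone. The ratio of the highest to the lowest medium was 244, a value that 5 genes exceeded. Across the 15 libraries the log2 levels of FOS and FOSB, each centred on its own mean, differed by a root mean square of 0.228, the smallest of the 21 pairs of members.

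FOSL1 (ENSG00000175592, chromosome 11, 65892049 to 65900573) was the FOS family gene with the most RNA in every medium when counts were scaled by merged exon length, although with neither nutrient this depended on the length used (below). It was at 419 to 421 CPM in glucose with NH4Cl, 416 to 436 CPM with both nutrients, 238 to 248 CPM with glutamine, 510 to 523 CPM with glucose and 856 to 886 CPM with neither. FOSL1 was therefore lowest with glutamine alone, the medium in which FOS and FOSB were second highest. Glucose with NH4Cl and both nutrients overlapped (log2 -0.02 ± 0.021, edgeR adjusted p = 0.362, 95% interval -0.06 to 0.02), and every other pair of neighbouring media was called different.

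FOSL2 (ENSG00000075426, chromosome 2, 28392448 to 28417312), which encodes Fra-2, varied least, with a highest to lowest ratio of 2.16 that 2989 genes exceeded. Its means were 52.1 ± 2.23 CPM in glucose with NH4Cl, 45.9 ± 0.604 CPM with both nutrients, 43.8 ± 1.21 CPM with glutamine, 68.8 ± 2.20 CPM with glucose and 94.6 ± 1.75 CPM with neither (SD, n = 3 each). Like FOSL1 it was highest with neither, then with glucose, and lowest with glutamine. Both nutrients and glutamine alone, its lowest neighbours, were not called different (log2 0.07 ± 0.045, edgeR adjusted p = 0.178, 95% interval -0.02 to 0.16).

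JUN (ENSG00000177606, chromosome 1, 58780788 to 58784327), whose product c-Jun is activated by the JNK kinases and binds its own promoter, stood far above the other media with neither nutrient. Its libraries were at 66.9, 63.2 and 67.6 CPM in glucose with NH4Cl, 53.5, 48.7 and 52.4 CPM with both nutrients, 96.0, 96.6 and 93.8 CPM with glutamine, 110.4, 110.0 and 106.5 CPM with glucose, and 1763, 1782 and 1818 CPM with neither. No medium overlapped another. Its ratio of highest to lowest medium was 34.7, exceeded by 14 genes, and unlike FOS and FOSB it was lower with glutamine than with glucose (log2 -0.19 ± 0.028, edgeR adjusted p = 7.11e-10).

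JUNB (ENSG00000171223, chromosome 19, 12791496 to 12793315), often a weaker activator that can oppose JUN, was at 78.9, 76.6 and 80.8 CPM in glucose with NH4Cl, 40.6, 39.2 and 38.1 CPM with both nutrients, 46.6, 45.6 and 49.8 CPM with glutamine, 81.9, 83.6 and 82.9 CPM with glucose, and 107, 114 and 108 CPM with neither. The 2 media that held glutamine were the lowest. Glucose with NH4Cl and glucose alone did not overlap but were not called different (log2 -0.07 ± 0.036, edgeR adjusted p = 0.124, 95% interval -0.14 to 0). JUNB shares 259 exon bases with HOOK2 on the opposite strand, and whether the counting used strand is not stated, so JUNB counts are uncertain to that extent. HOOK2 was at 9.67 to 17.8 CPM by medium.

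JUND (ENSG00000130522, chromosome 19, 18279760 to 18281622), usually held at a steady level, was at 105, 108 and 111 CPM in glucose with NH4Cl, 91.7, 87.9 and 86.3 CPM with both nutrients, 99.9, 101 and 96.3 CPM with glutamine, 76.2, 83.4 and 79.0 CPM with glucose, and 372, 393 and 367 CPM with neither. Outside the medium with neither nutrient, JUND was highest in glucose with NH4Cl and lowest in glucose alone, a place at the bottom that no other member had there. Its ratio of highest to lowest medium was 4.75, which 293 genes exceeded.

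**Figure D1:**
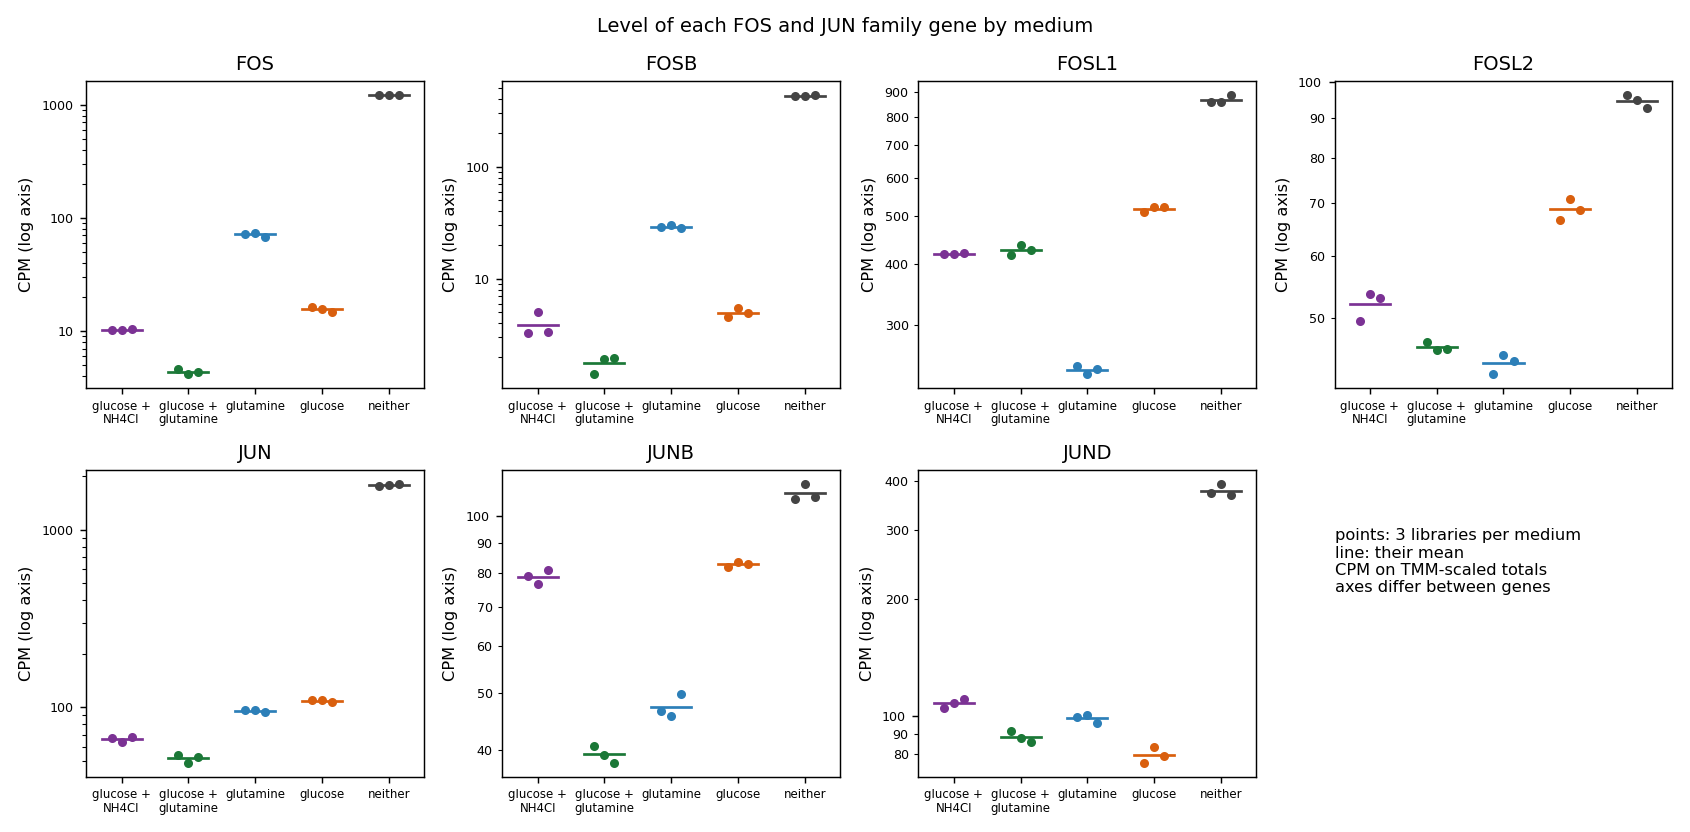
Level of each gene in CPM (log axis, different for each panel) in the 5 media, with points for the 3 libraries of a medium and a line at their mean. All 7 genes were highest with neither nutrient, with FOS at 1216 to 1220 CPM there, against 4.17 to 4.62 CPM with both nutrients.

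The makeup of each family was compared on levels per kilobase of merged exon length. FOSL1 held 95.2% ± 0.18 of the summed FOS family level in glucose with NH4Cl, 96.5% ± 0.12 with both nutrients, 79.4% ± 0.69 with glutamine, 94.7% ± 0.12 with glucose and 49.6% ± 0.45 with neither (SD, n = 3). FOS held 1.36%, 0.578%, 13.6% and 1.66% in the first 4 of these media and 40.6% ± 0.45 with neither. FOS and FOSL1 were thus close with neither nutrient, and their order there depended on the length used: with the longest transcript in place of merged exons, FOS held 46.6% and FOSL1 42.9%.

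Within the JUN family, JUND held the largest share with both nutrients (56.8% ± 0.37), with glutamine (50.1% ± 0.96) and in glucose with NH4Cl (48.4% ± 0.85), JUNB and JUND were close with glucose (38.3% ± 0.46 and 35.9% ± 0.92), and JUN, at 15.5% to 25.9% in the media with a nutrient, held 65.8% ± 0.96 with neither (SD, n = 3). The summed JUN family level was 0.514 ± 0.0097 of the summed FOS family level in glucose with NH4Cl, 0.358 ± 0.018 with both nutrients, 0.654 ± 0.0087 with glutamine, 0.41 ± 0.0065 with glucose and 0.829 ± 0.013 with neither. The FOS family therefore had more RNA per length than the JUN family in every medium, by the least with neither nutrient.

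**Figure D2:**
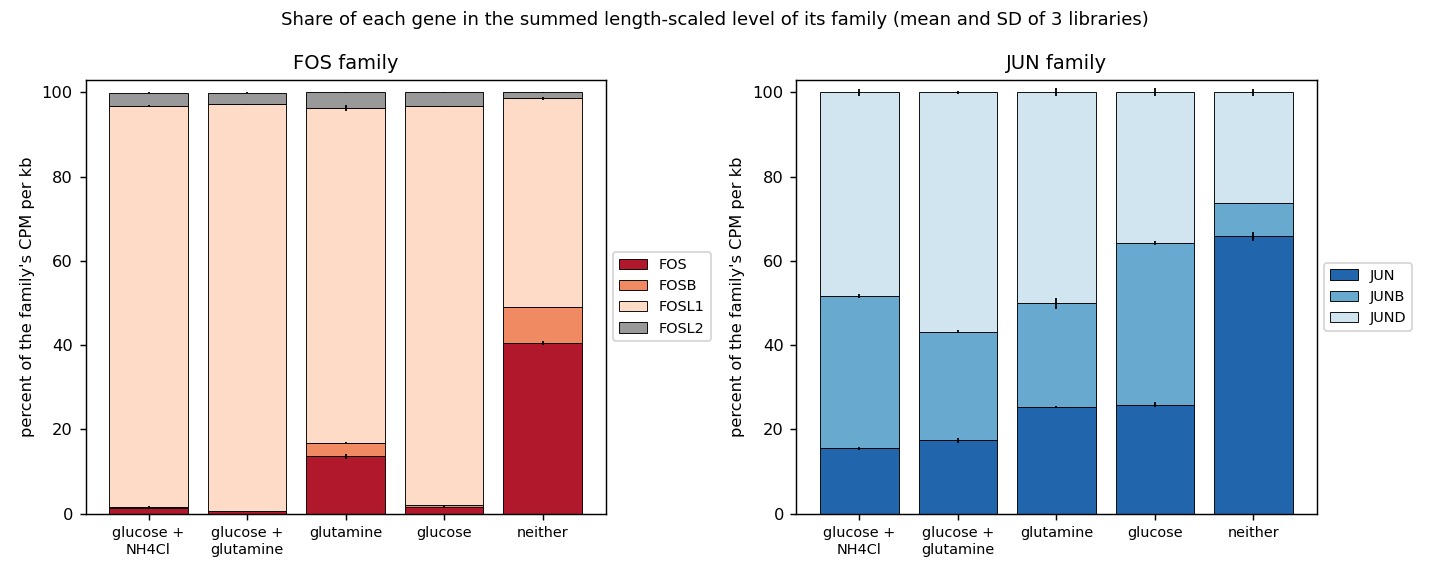
Share of each gene in the summed level per kilobase of its family (percent, mean of 3 libraries, error bars SD), FOS family left and JUN family right. FOSL1 fills 79.4% to 96.5% of the FOS family except with neither nutrient, where FOS reaches 40.6%, and JUN reaches 65.8% of the JUN family there.

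Against the medium with neither nutrient, every nutrient condition had less RNA of every member. With both nutrients 7 of 7 fell (35.3% of all genes tested were lower and 37% higher), and 7 of 7 fell at least 2-fold (4.2% of genes). The log2 change was -8.12 for FOS, -7.92 for FOSB and -5.12 for JUN, and between -1.02 (FOSL1) and -2.09 (JUND) for the rest. With glutamine alone 7 of 7 fell (35.8% of genes lower, 37% higher), all at least 2-fold (6.26%), from -1.11 for FOSL2 to -4.23 for JUN. With glucose alone 7 of 7 fell (37.9% of genes lower, 39.9% higher), and FOS (-6.29), FOSB (-6.44), JUN (-4.04) and JUND (-2.25) fell at least 2-fold (9.81%). In glucose with NH4Cl 7 of 7 fell (37.9%), 5 of them at least 2-fold (9.25%), with FOSL2 (-0.86) and JUNB (-0.47) the exceptions. These 4 comparisons share the libraries with neither nutrient.

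The calls of JUNB and FOSL2, and several of the counts at 2-fold, depended on how libraries were scaled. The 10 most abundant genes took 5.54% to 7.09% of counts in the media with a nutrient, against 12.31% to 12.4% with neither. With library totals and no TMM factor, the median log2 change over all genes was 0.344 to 0.446 higher in these 4 comparisons. JUNB was then 0.04 for glucose against neither, the opposite sign, and -0.03 for glucose with NH4Cl against neither, and FOSL2 was -0.02 for glucose against neither. None of these 3 was called with library totals. At least 2-fold lower with library totals were 5 of 7 members with both nutrients, FOSL1 (-0.58) and FOSL2 (-0.60) falling short, and 5 of 7 with glutamine, with FOSL2 at -0.77 and JUNB at -0.87. With glucose the 4 members were still at least 2-fold lower, and in glucose with NH4Cl 4 were, without FOSL1 (-0.60).

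In cells that had glucose, added glutamine lowered 6 of the 7 members and raised JUND. The 6 falls stand beside 33.7% of all genes lower, and the single rise beside 34.2% higher. FOS fell by 1.83 ± 0.079, FOSB by 1.48 ± 0.153, JUN by 1.08 ± 0.031 and JUNB by 1.08 ± 0.04 on the log2 scale, and these 4 passed 2-fold (6.31% of genes), while FOSL2 fell by 0.58 and FOSL1 by 0.28. JUND rose by 0.16 ± 0.035 (edgeR adjusted p = 2.37e-05), a 1.11-fold difference. The libraries of both media did not overlap for any of the 7, but the share of all genes without overlap was not counted.

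Glucose with NH4Cl was next set against glucose alone, where JUN and FOS fell most and JUND was the 1 member that rose. In glucose with NH4Cl 5 members were lower (16.9% of genes) and JUND was higher (12.7%), and 0 of 7 reached 2-fold (0.586% of genes in either direction). JUN fell by 0.73 ± 0.03, FOS by 0.59 ± 0.066, FOSL2 by 0.40 ± 0.041 and FOSL1 by 0.30 ± 0.021, and JUND rose by 0.45 ± 0.034 (edgeR adjusted p = 6.26e-26). FOSB was called lower (-0.34 ± 0.129, edgeR adjusted p = 0.0441), but its libraries overlapped and the call was lost in 9 alternatives, with adjusted p of 0.0506 to 0.286. This comparison and the one of both nutrients against glucose share the glucose libraries.

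Set directly against each other, glucose with NH4Cl had more RNA than both nutrients for 6 of 7 members (31.2% of genes higher, 33.4% lower). FOS was 1.23 ± 0.088 higher, FOSB 1.14 ± 0.164 and JUNB 1.00 ± 0.041 on the log2 scale, each at least 2-fold (4.94% of genes), though JUNB lay at the 2-fold line itself. JUN (0.35), JUND (0.29) and FOSL2 (0.18) were higher by less, and FOSL1 was not called.

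Glucose added to glutamine lowered FOS and FOSB 16.3-fold and 16.5-fold. FOS was at 4.37 ± 0.23 CPM with both nutrients, against 71.3 ± 2.71 CPM with glutamine alone (SD, n = 3), a log2 change of -4.03 ± 0.057 (edgeR adjusted p = 7.09e-132). In all, 5 members fell (33% of genes lower), FOS and FOSB by at least 2-fold (4.64%), with JUN at -0.89, JUNB at -0.27 and JUND at -0.16, and FOSL1 rose by 0.81 ± 0.022 (32.6% higher). FOSL2 was not called with TMM, and with library totals it was called higher (0.17, adjusted p = 0.000474) and JUND was not called (-0.06, adjusted p = 0.0914).

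The single nutrients divided the members. With glutamine alone, against glucose alone, FOS was higher by 2.20 ± 0.044, FOSB by 2.56 ± 0.079 and JUND by 0.32 ± 0.034 (33.5% of genes higher), and FOSL1 (-1.09 ± 0.022), JUNB (-0.81 ± 0.039), FOSL2 (-0.65 ± 0.042) and JUN (-0.19 ± 0.028) were lower (33% of genes). FOS and FOSB passed 2-fold upward (4.29% of genes) and FOSL1 downward (5.58%), all by the edgeR test. In glucose with NH4Cl, against glutamine alone, FOSL1 (0.79), JUNB (0.74), FOSL2 (0.25) and JUND (0.13) were higher (31.6% of genes) and FOS (-2.79), FOSB (-2.90) and JUN (-0.54) lower (32.8%), with FOS and FOSB lower by at least 2-fold (3.9%).

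**Figure D3:**
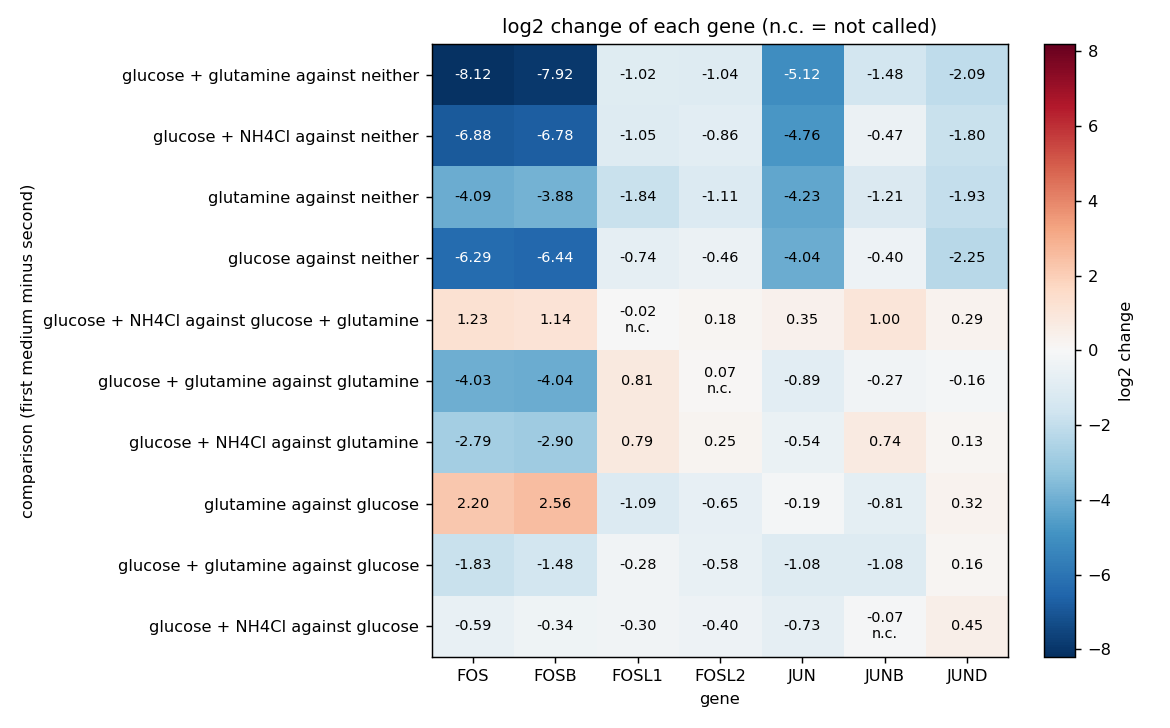
log2 change of each gene (columns) in the 10 comparisons of media (first medium minus second), blue for lower and red for higher in the first, n.c. where the edgeR adjusted p was not under 0.05. The 4 comparisons against neither nutrient are negative for every gene, from -8.12 for FOS to -0.40 for JUNB, and glutamine against glucose is 2.20 for FOS and -1.09 for FOSL1.

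Whether glutamine acted alike with and without glucose was tested as an interaction, the change in cells with glucose minus the change in cells without. All 7 values were positive (36.8% of genes were called so), 5 of them at least 2-fold (15.5%). JUN had the largest: glutamine lowered it by 1.08 with glucose and by 4.23 without, an interaction of 3.15 ± 0.041 (edgeR adjusted p = 1.26e-138). FOSB (2.40 ± 0.193), FOS (2.26 ± 0.103) and FOSL1 (1.55 ± 0.03) had the same form, a fall in both settings that was deeper without glucose. JUND fell by 1.93 without glucose and rose by 0.16 with it (2.09 ± 0.046). FOSL2 (0.53 ± 0.059) was small, as was JUNB (0.13 ± 0.057, edgeR adjusted p = 0.0271). Library totals shifted the median interaction over all genes by -0.337. With them FOSL2 was at 0.19, JUNB took the opposite sign (-0.20), and 5 members were still at least 2-fold.

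**Figure D4:**
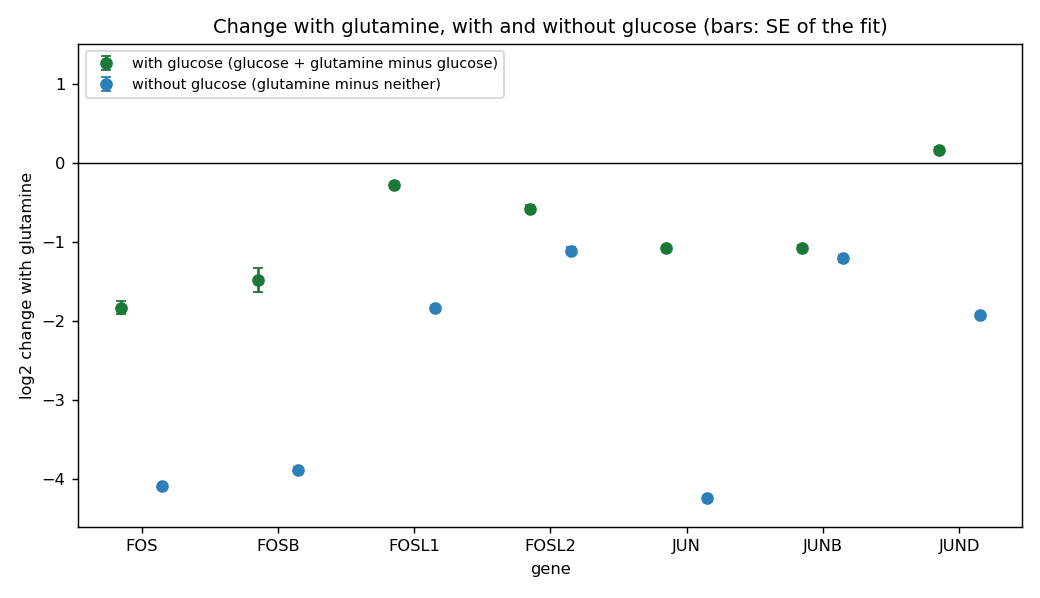
log2 change of each gene with glutamine in cells with glucose (green, glucose with glutamine minus glucose) and without glucose (blue, glutamine minus neither), with bars for the SE of the fit. JUN is at -1.08 and -4.23, JUND at 0.16 and -1.93, and the JUNB points nearly coincide at -1.08 and -1.21.

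The other genes of the pathway were described by lists that were chosen with earlier results of these data known. Of 13 measured partner factors of the same zipper class, 11 were lower and 1, ATF2 (0.13), was higher with both nutrients against neither (35.3% of all genes lower, 37% higher; median log2 -0.62, against 0.047 for all genes), and 7 were lower and 3 higher with library totals. ATF3, a stress-induced factor that dimerizes with JUN, was at 4.44 ± 0.355 CPM with both, against 280 ± 0.626 CPM with neither (SD, n = 3; log2 -5.97), and MAFF (-3.28), ATF4 (-1.60) and BATF3 (-1.40) also fell. BATF, of lymphoid cells, did not pass the filter. With both nutrients against glucose alone (33.7% of all genes lower, 34.2% higher) 11 were lower, with ATF3 at -3.58, and BATF3 was higher (0.41; median of the list -1.06). In glucose with NH4Cl against glucose (16.9% lower, 12.7% higher) 7 were lower, with ATF3 at -0.41 and CREB5 at -0.67, and JDP2 was higher (0.18; median -0.17).

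Among 17 other immediate early genes, 13 were lower and 3 (KLF2, IER3 and IER2, at 0.36, 0.24 and 0.16) were higher with both nutrients against neither (35.3% of all genes lower, 37% higher; median -1.52; 12 lower and 5 higher with library totals). EGR1, a zinc finger factor induced with FOS, fell to 12.5 ± 0.434 CPM with both, against 596 ± 8.17 CPM with neither, and DUSP1, a phosphatase that switches off JNK and p38, to 15.7 ± 0.756 CPM, against 535 ± 6.63 CPM (SD, n = 3). EGR3 was at 0 to 0.16 CPM with both, at the floor of 3 counts, so no fold is given. With glutamine against glucose 10 were lower and 4 higher (33% and 33.5% of all genes; median -0.65). The largest changes were falls, in EGR2 (-2.25), EGR3 (-2.18) and NR4A3 (-2.17), genes of low level, and in MCL1 (-1.26). The 4 higher genes were DUSP1 (0.65), IER5 (0.51), KLF2 (0.44) and KLF4 (0.16).

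AP-1 targets moved in both directions. Of 20 measured targets, 12 were lower and 2 higher with both nutrients against neither (35.3% and 37% of all genes; median -0.44), with HBEGF (-2.15) and PLAUR (-1.62) lower and ITGB6, at under 1.5 CPM, and CAV1 higher (2.03 and 0.22), and with library totals 7 were lower and 6 higher (median 0). With glutamine against neither (35.8% and 37% of all genes), 9 were lower and 6 higher, against 5 lower and 9 higher with library totals. There the collagenase gene MMP1 was at 19.6 ± 1.07 CPM with glutamine, against 5.99 ± 0.91 CPM with neither (log2 1.72), and the osteopontin gene SPP1 at 54.1 ± 2.62 CPM, against 22.2 ± 2.20 CPM (1.29; SD, n = 3), while the urokinase receptor gene PLAUR was lower (-1.45). MMP3, AREG, EREG, CXCL8 and IL6 did not pass the filter.

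Upstream, the genes of the MAP kinases changed in both directions: of 17 measured, 7 were higher and 6 lower with both nutrients against neither (37% of all genes higher and 35.3% lower; median -0.02; 13 higher and 3 lower with library totals), with MAP3K5 at 1.00 and MAP2K3 at -0.71. The largest of these changes was in MAP2K6 (log2 1.75), a gene of few counts, at 1.34 ± 0.512 CPM with both nutrients, against 0.407 ± 0.213 CPM with neither (SD, n = 3). In the same comparison, with the same shares of all genes, of 8 genes for SRF, which drives FOS transcription, and its cofactors 6 were higher, with MRTFB at 1.11 and ELK4 at 0.81, and ELK1 (-0.49) and MRTFA (-0.15) were lower (median 0.24; 7 higher and 0 lower with library totals). Of 11 genes that control JUN and FOS protein or mRNA turnover, set against those shares, 3 were higher and 7 lower (median -0.24; 6 higher and 5 lower with library totals). ZFP36 and ZFP36L1, whose proteins promote decay of mRNAs with AU-rich elements, fell by 2.67 and 1.87 with both nutrients, and FBXW7, a ubiquitin ligase subunit that marks c-Jun for degradation, rose by 0.90, as did ZFP36L2 (0.38).

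The genes whose pattern over the 15 libraries was most like each member were sought among 11272 genes, by the root mean square difference of centred log2 CPM. Nearest to FOS were ZFAND2A (0.836), DUSP1 (1.138) and DNAJB1 (1.18), and the same 3 genes were nearest to FOSB. None of the 11272 genes came as close to FOS as FOSB did (0.228). ZFAND2A, an arsenite-inducible gene, was at 24.4, 11, 119 and 29.4 CPM in glucose with NH4Cl, both nutrients, glutamine and glucose, and at 623 CPM with neither. JUN had DUSP1 (0.276), NOCT (0.562) and DUSP2 (0.562) nearest. The nearest gene was UBALD2 for JUNB (0.096), ITPRIP for FOSL2 (0.099), UBE2S for FOSL1 (0.128) and SPHK1 for JUND (0.161). This distance grows with a gene's own spread between media, so it is not compared between members. By Pearson correlation in place of this distance, the nearest gene was another one for all 7 members, and of the 3 nearest genes 1 was shared for FOS, FOSB, JUN and JUNB and 0 for FOSL1, FOSL2 and JUND.

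**Figure D5:**
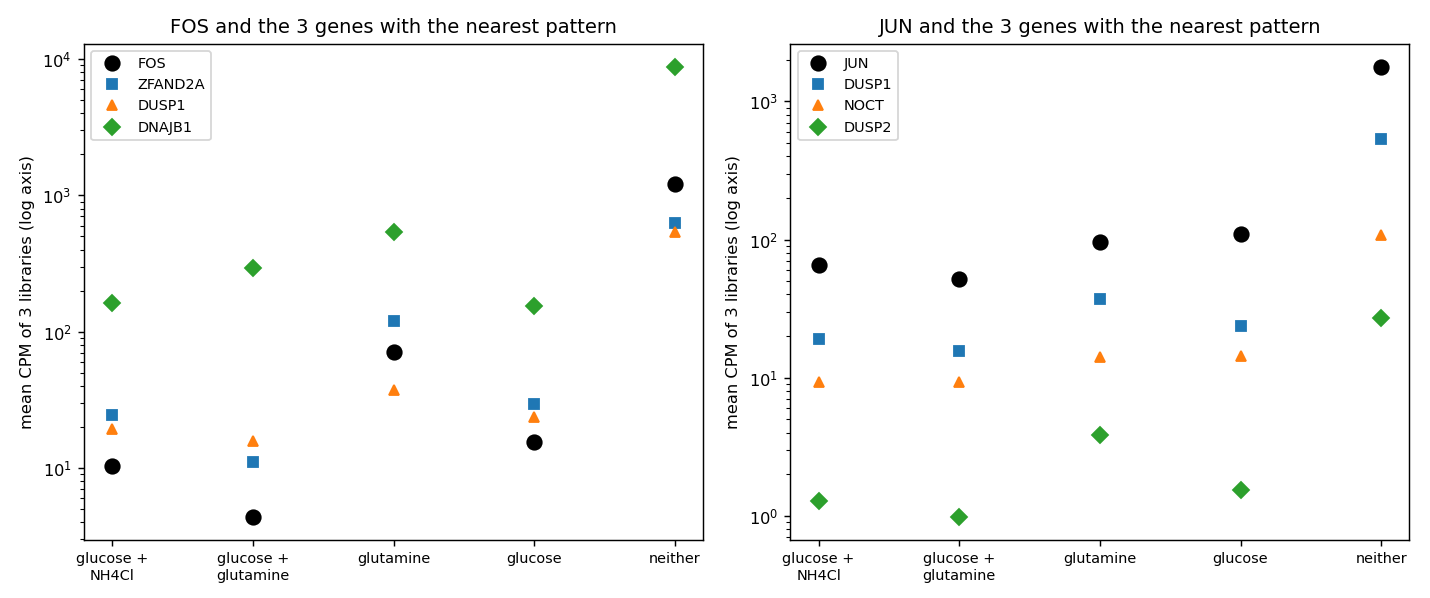
Mean CPM of 3 libraries (log axis) in the 5 media for FOS (left, circles) and JUN (right, circles) with the 3 genes whose pattern was nearest by root mean square difference; vertical position between genes is not scaled for length. DUSP1 stands at 15.7 CPM with both nutrients and 535 CPM with neither, where JUN stands at 51.5 and 1788 CPM.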

How the data were processed

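RNA of 15 libraries of H1299 cells was sequenced, 3 in each of 5 media. The authors deposited raw counts per Ensembl gene, not normalized. The genome build GRCh38.p12 and the tools Subread 1.5.1, featureCounts and HISAT2 2.1.0 appear in the submitters' processing notes with no stated role. For multi-mapping reads and strand the settings were not given in the sources used here. Libraries came from a stranded kit, per the labels' protocols. Names, positions and lengths came from GENCODE 29, which held 58275 of 58395 gene IDs. Promoter windows came from RefSeq.

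Counts were filtered with filterByExpr, scaled by TMM and tested in 1 fit of all 15 libraries (a mean per medium, no replicate block) by edgeR 4.0.16 (R 4.3.3) with its quasi-likelihood test, two-sided, with 10 residual degrees of freedom. A call needed an adjusted p under 0.05 (Benjamini-Hochberg, over 16889 genes). Within media, 15 pairs of libraries had a chi-square per gene of 1.23 to 2.46 and 0 were identical. A floor of 3 counts was 0.15 to 0.201 CPM and covers counting error only. The steps were tested on simulated data.

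The members and gene lists were chosen with earlier results of these data known. Named were all members, the 3 genes nearest in pattern to each member (mean of at least 5 CPM), and up to 4 genes per list with the largest change among those called; a few genes under this rule are not reported here. Alternatives were DESeq2 size factors, library totals, the DESeq2 1.42.0 Wald test, no filter, a filter of 1 CPM in 3 libraries, the compared media alone, a replicate block, and each library left out.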

Additional observations from a re-analysis of the deposited data

Results flagged for a closer look

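With TMM scaling, the effect of glutamine differed between cells with and without glucose for each of the 7 genes. The same was called for 74.8% of all genes tested, in either direction. The difference was the interaction term of the edgeR quasi-likelihood test (glutamine effect with glucose minus glutamine effect without, log2). The difference was 3.15 for JUN, 2.40 for FOSB, 2.26 for FOS, 2.09 for JUND, 1.55 for FOSL1, 0.53 for FOSL2 and 0.13 for JUNB. For JUND the effect was positive with glucose (0.16) and negative without (-1.93), while for the other 6 genes it was negative in both settings. The JUNB difference had an adjusted p of 0.0271 and is the one that did not hold under every alternative tried. With library totals it was -0.20 and was called in that opposite direction (edgeR adjusted p = 0.000713).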

How the results depend on the processing

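Of 1771 alternative values for the 77 log2 changes of members, 1749 kept their side of the threshold and, where called, their direction. A change of sign in a value called in neither fit was not counted. The 2 counted as turned in direction were JUNB with library totals alone, 0.04 for glucose against neither and -0.20 for the interaction. The JUNB interaction also lost its call without a filter (adjusted p = 0.0666), with DESeq2 (0.0517), and without glutamine replicate 1 or 2, glucose with glutamine replicate 1, or neither replicate 2 (adjusted p 0.0505 to 0.095). The FOSB call for glucose with NH4Cl against glucose was lost without glucose replicate 2 or 3 and without glucose with NH4Cl replicate 1 or 3 (-0.34 to -0.23). A fit without the 3 libraries richest in low counts, and all counts at 2-fold, were added after the data were seen; without those libraries (glucose replicate 1, glucose with glutamine replicate 3, neither replicate 2) only the JUNB interaction was lost (adjusted p = 0.0719). Counts of all genes at 2-fold moved from 99 to 44 with DESeq2 (glucose with NH4Cl against glucose) and from 2839 to 4567 with library totals (both nutrients against neither). The replicate block changed no count of members called (7 of 7 for both nutrients against glucose), and it called 11450 genes there, against 11467 without the block. Libraries with equal numbers did not deviate together (30 pairs, median residual correlation -0.001; 60 other pairs, 0.004), so the numbers were not used as pairs. At 25 to 93 counts FOSB was the member most limited by depth outside glutamine alone and neither.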

Other observations

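In glucose with NH4Cl, against glucose alone, the pathway lists held more lower than higher genes, as counts by the edgeR test. Of 17 immediate early genes 10 were lower and 1, NR4A1 (log2 0.45), was higher, with EGR1 at -0.65 and GADD45B at -0.54. Of 20 AP-1 targets 8 were lower and 1, PLAU (0.21), was higher, with VEGFA at -0.27 among the lower. Of 8 genes for SRF and its cofactors 4 (ELK4, CREBBP, ELK3 and SRF, at -0.34, -0.33, -0.31 and -0.22) were lower and 0 higher, and of 17 MAP kinase genes 4 were lower, such as MAP3K1 (-0.28) and BRAF (-0.23), and 1, MAPK3 (0.41), was higher. In the same comparison 16.9% of all genes tested were lower and 12.7% higher. In each of these lists 0 genes reached 2-fold, and of all genes tested only 0.586% did so in either direction. The median change of each list was small: -0.24 for immediate early genes, -0.16 for targets, -0.17 for SRF and its cofactors and -0.07 for MAP kinases, against -0.013 for all genes.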
